A study of Sus scrofa with 30 samples.

Results

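The mitochondrial respiratory chain was followed in teat tissue of peripubertal pigs from commercial dam lines. Its members were all genes whose symbol on the array begins with NDUF, SDHA to SDHD, UQCR, COX4 to COX8 or ATP5, taken only from probe sets (groups of short probes for 1 transcript) with a single symbol. The rule found 82 probe sets for 64 genes, of 6765 single-symbol genes in all, and where a gene had several probe sets the brightest on average over the 30 arrays stands for it. Complex I has 36 members, complex II 5, complex III 2, complex IV 7 and complex V 14. Genes of the chain without such a probe set were not analysed here, which leaves complex III with a pair of small subunits and omits the subunits that mitochondrial DNA encodes.

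Oxidative phosphorylation couples fuel oxidation to ATP synthesis across the inner mitochondrial membrane. Complexes I and II pass electrons from NADH and succinate to ubiquinone, complex III hands them to cytochrome c, complex IV reduces oxygen, and complex V lets protons flow back to make ATP. Tissues differ in how much of this machinery they carry, and several complex IV and V subunits come as isoforms from separate genes, some of them typical of contractile muscle.

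Transcript levels come from 30 Affymetrix Porcine Genome arrays of 10 animals, sampled at slaughter at a mean end weight of 110 kg. Epithelial and mesenchymal tissue each came from 3 classes of teat: normal teats of 5 non-affected animals, and, from each of 5 affected animals (pigs with inverted teats), 1 normal and 1 inverted teat. Each of the 6 groups held 5 arrays. Inversion was judged by inspection and palpation, and no treatment was given in the labels. In each status, 3 animals were Large White x German Landrace, 1 was German Landrace (957 non-affected, 963 affected) and 1 was Pietrain x (Large White x German Landrace) (1109 non-affected, 1103 affected). The series looks for genes linked to the inverted teat defect. All values below are log2 levels as deposited, or differences between them.

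The dissected layers were mixed tissue. Of 11 measured luminal epithelial markers, 10 were higher in epithelial than in mesenchymal pieces of normal teats. The mean of the list nevertheless reached 9.16, 9.14 and 9.08 in the mesenchymal arrays of animals 957, 964 and 963, against an epithelial median of 9.02. In inverted teats it was higher in mesenchymal than in epithelial tissue in animals 964 (9.45 against 9.23), 1059 (8.22 against 8.15) and 1103 (7.41 against 4.42). It was lower in animals 963 (8.72 against 9.15) and 1037 (3.75 against 8.68). The epithelial inverted teat of animal 1103 stood apart with a luminal mean of 4.42, where the other 4 epithelial inverted teats lay between 8.15 and 9.23, and its CLDN3 was listed at 0. Some of the counts and medians that rest on this array are also given without it, and the others include it. Of 23 skeletal muscle markers 22 were lower in epithelial tissue of normal teats (median difference -4.56), and of 16 adipocyte markers 15 were lower (median -2.003). Skeletal muscle transcript was nearly absent from the mesenchymal normal teat of animal 1040 and the mesenchymal inverted teat of animal 963, where 18 of the 23 markers lay below the 30th percentile of the array, and TNNT3 was listed at 0 in both.

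In normal teats the respiratory chain was lower in epithelial than in mesenchymal tissue, in all 5 complexes. Of the 64 members 59 were lower at an adjusted p below 0.05 and 0 were higher, whereas 20.6% of all 18286 tested probe sets were lower and 12.9% were higher (limma, Benjamini-Hochberg adjustment over all probe sets). At an unadjusted p below 0.05 there were 61 members, against 44.2% of all probe sets. The median difference of the members was -0.73, against -0.06 for all probe sets, and 63 members lay below 0, where 44.4% of all probe sets lay above it. All 64 members passed the filter on low values in every fit. In bulk tissue, fewer cells of a type and less RNA per cell cannot be told apart. Scaling changed the size of this difference. After quantile normalization 47 members remained lower, 1 was higher and the median was -0.43; over all probe sets the share of calls that were higher went from 38.5% to 54.8%. The mean skeletal muscle list ran from 3.33 to 8.46 in the 10 epithelial arrays and from 3.38 to 11.9 in the 10 mesenchymal arrays. The adipocyte list ran from 7.35 to 9.53 and from 9.22 to 10.9. The part of either cell type in the result was not tested. In animal 1040, whose mesenchymal piece had nearly no muscle transcript (list mean 3.38, epithelial 3.33), 62 of 64 members were lower in epithelial tissue with a median of -0.75; its adipocyte list stood at 10.5 in mesenchymal and 8.22 in epithelial tissue.

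**Figure D1:**
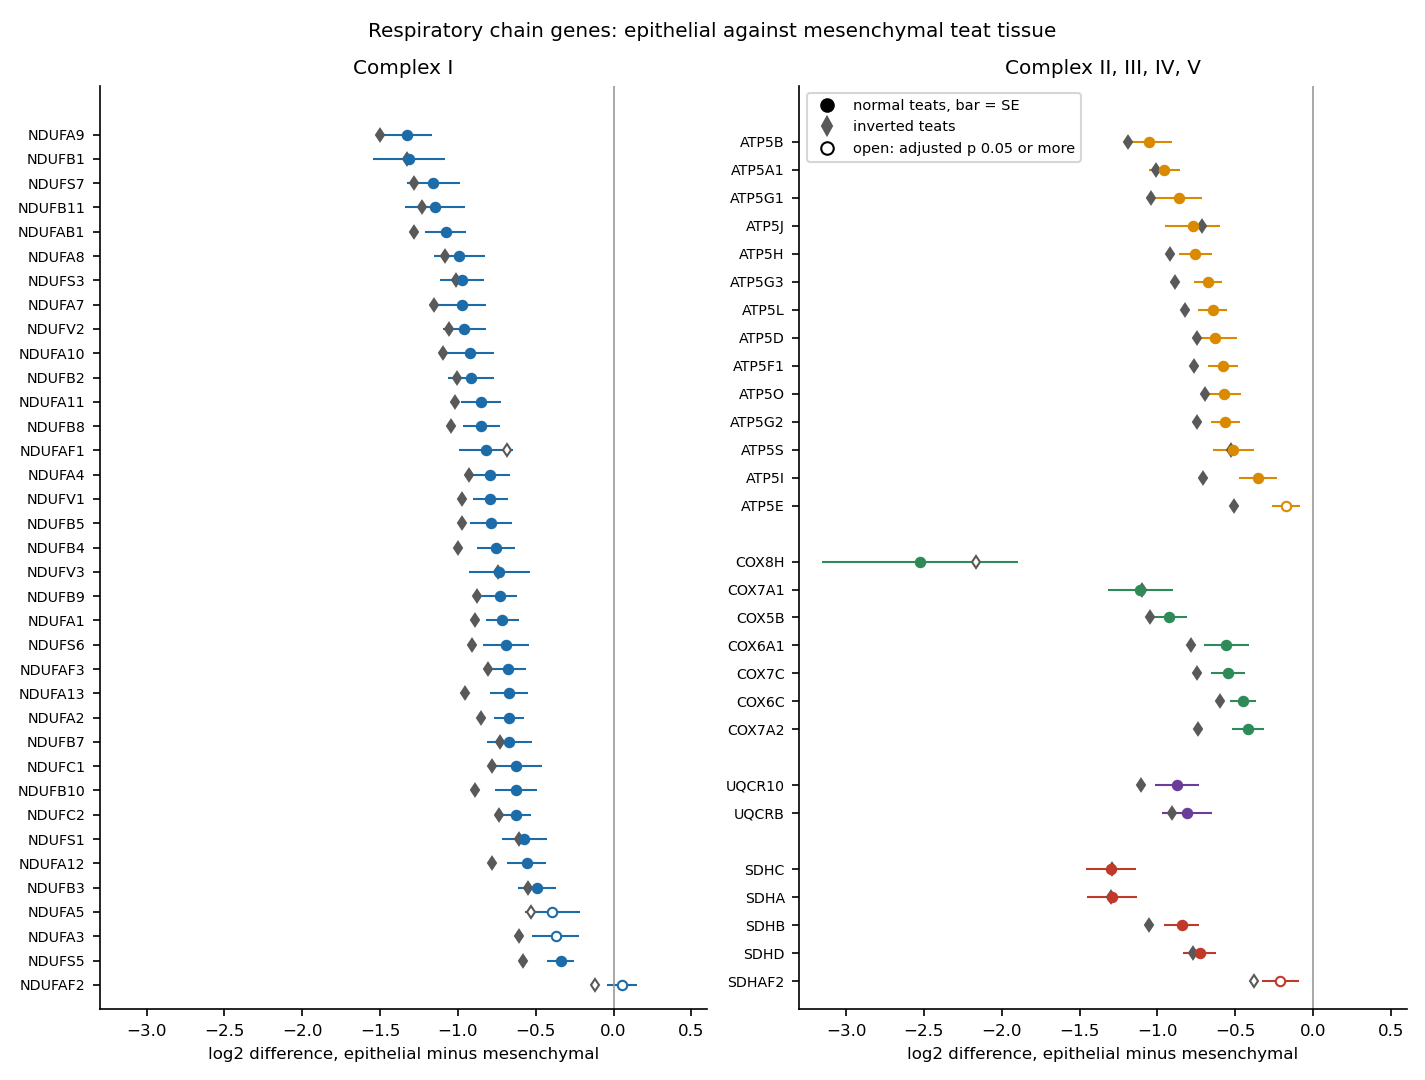
Log2 difference between epithelial and mesenchymal tissue for each of the 64 members (x axis), by complex (rows, coloured). Circles are normal teats with the SE of the fit, grey diamonds inverted teats, and open symbols lie at an adjusted p of 0.05 or more; 59 circles are filled, all left of 0, and COX8H lies farthest left at -2.53.

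Complex I oxidises NADH and was represented by 5 core subunits, 28 accessory subunits and 3 assembly factors. Of its members 33 were lower in epithelial tissue and the median difference was -0.74. All 5 core subunits were among them, with a median of -0.96. Further probe sets of NDUFV2 (-0.13 and -0.59, adjusted p = 0.396 and 0.0795) and 1 of 2 of NDUFS3 (-0.38, adjusted p = 0.542) did not pass. NDUFA9, an accessory subunit near the ubiquinone site, ran from 7.41 over a median of 7.78 to 8.18 in epithelial arrays and from 8.57 over 8.99 to 9.82 in mesenchymal arrays. The tissues did not overlap in NDUFA9, and it was lower in epithelial tissue in 10 of 10 animals (log2 difference -1.33 ± 0.16 SE, 2.51-fold, adjusted p = 2.25e-05). NDUFS7, a core subunit that carries an iron-sulphur cluster, likewise showed no overlap, with at most 8.33 in epithelial and at least 8.44 in mesenchymal tissue (-1.16 ± 0.17, adjusted p = 7.68e-05). NDUFB1, a membrane-arm accessory subunit, differed by -1.31 ± 0.23 (adjusted p = 0.000339), with its highest mesenchymal levels of 10.7 and 10.6 in animals 1059 and 1058.

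An assembly factor and 2 accessory subunits of complex I did not pass. NDUFAF2, an assembly factor that is absent from the finished enzyme, lay between 6.43 and 6.98 in epithelial arrays and between 6.31 and 6.86 in mesenchymal ones. Its ranges overlapped nearly fully and it was higher in epithelial tissue in 5 of 10 animals (0.05 ± 0.10, adjusted p = 0.703). The accessory subunits NDUFA3 (-0.37 ± 0.15, adjusted p = 0.0615) and NDUFA5 (-0.39 ± 0.18, adjusted p = 0.0906) were lower in 9 and 7 of 10 animals. Both passed with the animal as a random block (adjusted p = 0.0196 and 0.0407), and NDUFA3 also without animal 1037 (adjusted p = 0.028). The other assembly factors, NDUFAF1 and NDUFAF3, were lower in all 10 animals. NDUFA4 is counted here with complex I by its name although it is now placed in complex IV; moving it left the medians at -0.73 for complex I and -0.68 for complex IV.

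Complex II, succinate dehydrogenase, belongs both to the chain and to the citric acid cycle. Its 4 subunits were all lower in epithelial tissue, with a median of -1.07. SDHA, the flavoprotein, ran from 8.41 over a median of 8.70 to 9.33 in epithelial and from 9.40 over 10.2 to 10.5 in mesenchymal arrays. SDHA did not overlap between the tissues (-1.29 ± 0.16, adjusted p = 2.47e-05), and its second probe set gave -1.47 ± 0.20. SDHC, a membrane anchor, differed by a similar -1.30 ± 0.16 (adjusted p = 2.48e-05), although the epithelial array of animal 1037, at 8.88, lay above the mesenchymal array of animal 964, at 8.65. SDHD, the other anchor, differed by -0.73 ± 0.10.

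SDHB, the iron-sulphur subunit, gave opposite answers on its 2 probe sets. The one with the higher signal fell by 0.85 ± 0.11 (adjusted p = 4.24e-05) and was lower in 10 of 10 animals, while the other was higher in epithelial tissue by 0.70 ± 0.25 in 9 of 10 animals (adjusted p = 0.0347). The direction of SDHB therefore holds for the first probe set only. SDHAF2, the factor that helps attach the flavin to SDHA, did not pass (-0.21 ± 0.12, adjusted p = 0.178), though its second probe set did (-0.52 ± 0.14, adjusted p = 0.00822).

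Both measured complex III subunits were lower in epithelial tissue. UQCR10, a small subunit of the cytochrome bc1 complex, lay between 8.996 and 9.63 in epithelial arrays and between 9.59 and 10.6 in mesenchymal ones. The only overlap was that of animal 1037, whose epithelial array was the highest and mesenchymal array the lowest of its tissue (-0.87 ± 0.14, adjusted p = 0.000157). UQCRB, which helps bind ubiquinone, ran from 9.54 to 10.2 and from 10.3 to 11.5 without overlap (-0.81 ± 0.16, adjusted p = 0.000921).

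All 7 complex IV subunits were lower in epithelial tissue, with a median of -0.56; their differences ran from -2.53 (COX8H) to -0.42 (COX7A2). After quantile normalization only 3 of the 7 remained lower and the median was -0.13. COX5B, a subunit found in all tissues, lay between 10.04 and 10.5 in epithelial arrays and between 10.8 and 11.6 in mesenchymal ones, without overlap (-0.92 ± 0.11, adjusted p = 2.37e-05). COX8H, the heart and muscle isoform of the smallest subunit, had the largest difference of all members (-2.53 ± 0.63, adjusted p = 0.00499). In mesenchymal normal teats COX8H was 8.88 in animal 950, 6.64 in 957, 4.30 in 1040, 11.3 in 1058 and 8.08 in 1109. In affected animals it was 9.56 in 963, 8.19 in 964, 7.83 in 1037, 11.1 in 1059 and 7.45 in 1103. The epithelial arrays lay between 4.98 and 6.29, so that animal 1040 alone was below its own epithelial array, by 1.88.

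COX8H levels in mesenchyme ran beside those of the muscle list. The 2 arrays with the highest list means among normal teats, 11.9 in animal 1059 and 11.3 in animal 1058, held the 2 highest COX8H levels, and animal 1040 with a list mean of 3.38 held the lowest. COX7A1, the muscle isoform of subunit VIIa, was likewise highest in these 2 arrays, at 10.5 and 10.6, but stood at 8.94 in animal 1040, above all 10 epithelial arrays save that of animal 1058 (8.97). COX7A2 and COX6A1, the isoforms found in most tissues, showed another order, and COX6A1 was singled out after its values were seen. In animal 1058 they had their lowest mesenchymal levels, 9.57 and 10.5, and COX6A1 was there below its own epithelial array (10.7). In animal 1040 they stood at 10.1 and 11.5, both above all 10 epithelial arrays. The part of muscle in these levels was not tested.

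**Figure D2:**
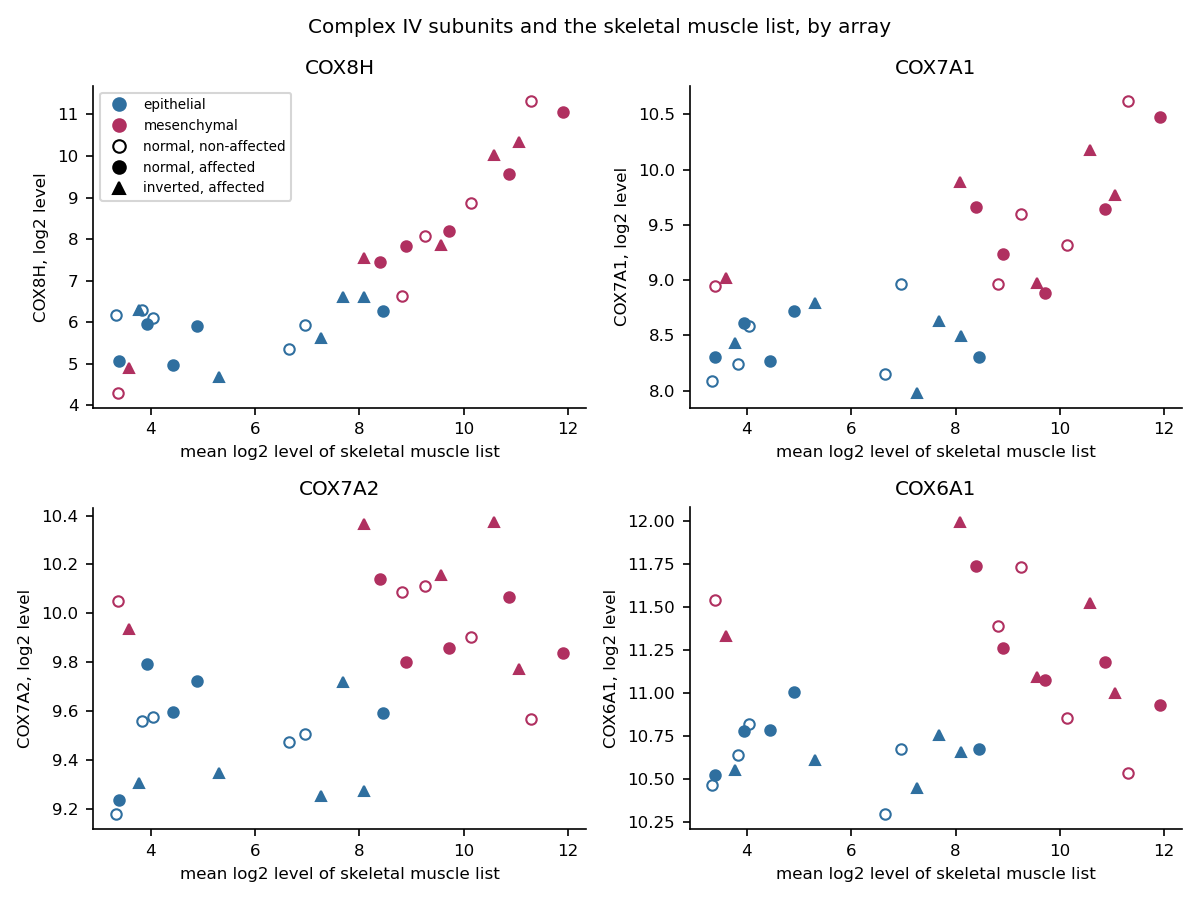
Log2 levels of COX8H, COX7A1, COX7A2 and COX6A1 (y axes) against the mean log2 level of the skeletal muscle list (x axes), 1 point per array for all 30 arrays; colour marks tissue, shape and fill mark teat class. Mesenchymal COX8H is 4.30 at the lowest list mean and 11.1 at the highest, whereas mesenchymal COX6A1 is lowest, at 10.5, at a list mean of 11.3.

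Complex V makes ATP in its F1 head on top of a membrane part and connecting stalks. Of its 14 members 13 were lower in epithelial tissue (median -0.64), among them 3 of 4 subunits of the head and 9 of 9 of the membrane part and stalk. ATP5A1, the alpha subunit, ran from 10.28 over 10.54 to 10.96 in epithelial and from 11.1 over 11.6 to 11.7 in mesenchymal arrays. It did not overlap between tissues and had the smallest p of all members (-0.96 ± 0.10, 1.94-fold, adjusted p = 8.06e-06). ATP5B, the catalytic beta subunit, ran from 10.05 to 11.04 and from 11.1 to 11.9, also without overlap (-1.06 ± 0.15, adjusted p = 5.79e-05). ATP5E, the epsilon subunit, did not pass (-0.17 ± 0.09, adjusted p = 0.137), and after quantile normalization its direction turned and it passed as higher in epithelial tissue (0.22, adjusted p = 0.0424). With that scaling 8 of the 14 members were lower. ATP5S, a coupling factor outside the enzyme's core, was lower by 0.51 ± 0.13 on its main probe set, while its second probe set gave 0.16 ± 0.23.

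Across the 64 members the tissues did not overlap in 30, against 1.96% of all tested probe sets that were lower without overlap. A total of 48 members were lower in epithelial tissue in all 10 animals, a count given without a share over all probe sets to set it against. Members also differed in their spread. In normal teats of non-affected animals the SD over 5 animals was larger in mesenchyme for 58 of 64 members, with a median SD of 0.32 against 0.19 in epithelium; of all 18286 probe sets 78.6% had the larger SD in mesenchyme. In affected animals it was 59 members in normal teats (73.5% of all probe sets) and 56 in inverted teats (62.1%).

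The mean difference of the whole chain was below 0 in each of the 10 animals, from -0.32 in animal 1037 to -1.22 in animal 1059. Complex by complex the animals ranked differently. By the median over members complex IV (-0.56) differed less than complex V (-0.64), but more than complex V once NDUFA4 was counted in complex IV. By the mean over members, each of complexes I, II, III and IV differed more than complex V in 9 of 10 animals. Among the exceptions were animal 1058, with -0.75 for complex II and -0.96 for complex V, and animal 964, with -0.56 for complex I and -0.61 for complex V. The complex IV mean includes COX8H, at -2.53. Animal 1037 showed the smallest differences in complexes I, III, IV and V, from -0.10 in complex III to -0.48 in complex IV, but -0.63 in complex II. In that animal the epithelial array was the highest of its tissue for NDUFA9, SDHA and ATP5A1. The differences between complexes were not tested, since they rest on scores over members.

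**Figure D3:**
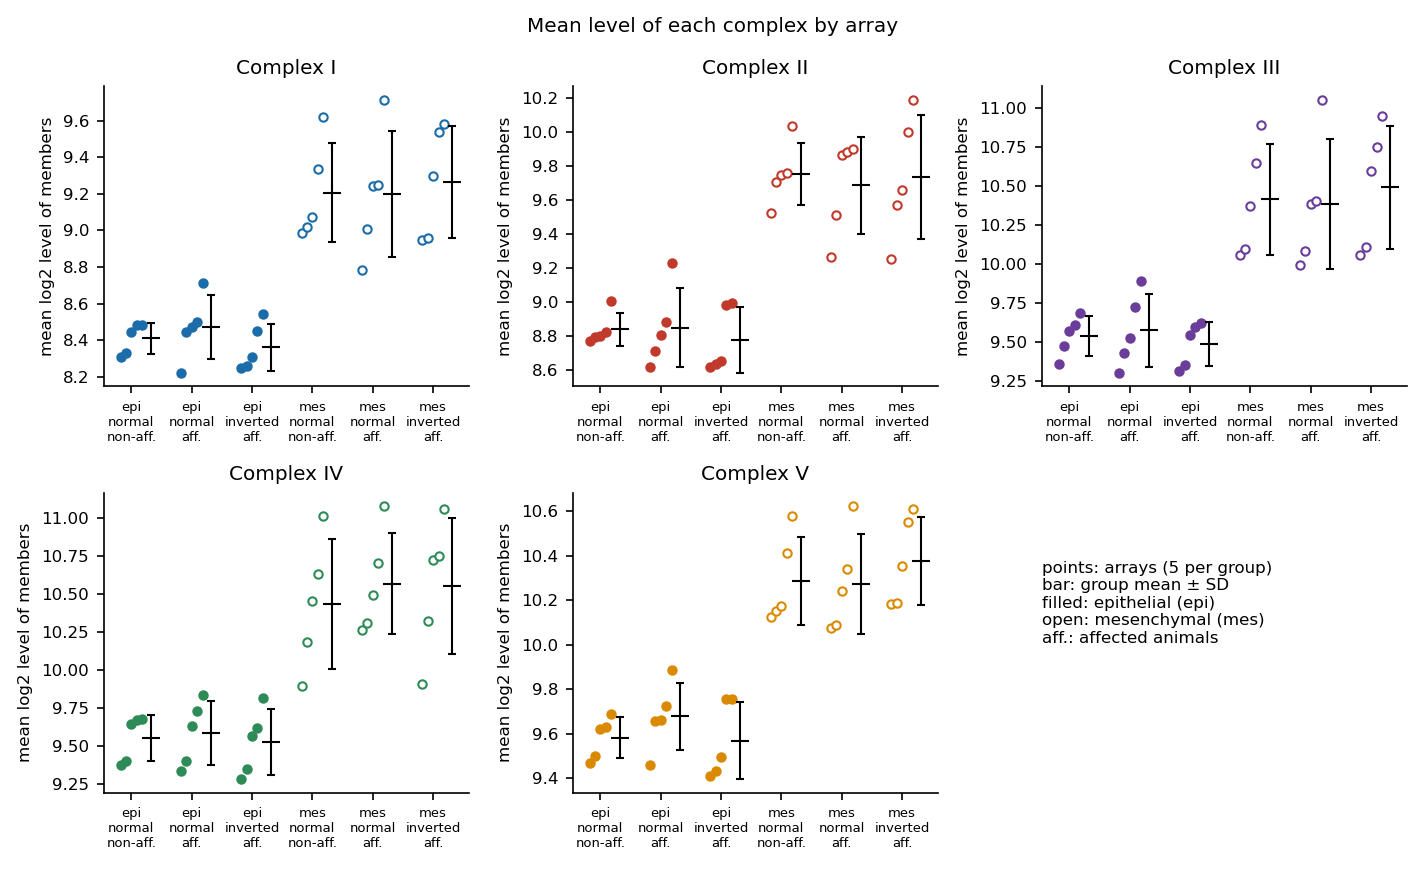
Mean log2 level of the members of each complex (y axes) on each array, in the 6 groups of 5 arrays (x axes); filled points are epithelial and open points mesenchymal arrays, bars the group mean and SD. Every mesenchymal group mean lies above every epithelial one, from 9.20 against at most 8.47 in complex I to 10.3 against at most 9.68 in complex V, and the groups of 1 tissue lie close together. Levels are not comparable between complexes, since each averages different probe sets.

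Isoform ratios within an array show unequal change of paired genes. Of the listed isoform pairs 3 were measured here. COX7A1 over COX7A2 was lower in epithelial than in mesenchymal tissue by 0.69 ± 0.66 (SD over 10 animals) on the log2 scale, and lower in 7 of 10 animals (two-sided exact sign-flip test within animals, p = 0.0156, adjusted over 3 pairs 0.0234). The difference was -1.82 in animal 1059 and -1.60 in animal 1058, between -0.87 and -0.44 in 5 animals, and 0.13, 0.04 and 0.01 in animals 957, 964 and 1040. The mesenchymal muscle list stood at 11.9 and 11.3 in animals 1059 and 1058, and at 8.82, 9.71 and 3.38 in animals 957, 964 and 1040. In animals 963, 1103, 1109, 950 and 1037 it stood at 10.9, 8.40, 9.26, 10.1 and 8.90. The ratio differences of these 5 animals were -0.87, -0.85, -0.81, -0.74 and -0.44, in the same order. The part of muscle was not tested. Leaving out each animal in turn left the adjusted p between 0.0234 and 0.0469. ATP5G1 over ATP5G2, a pair of genes that encode the same mature c subunit of the membrane ring, was lower in epithelial tissue by 0.30 ± 0.24 in 9 of 10 animals (exact p = 0.00586, adjusted 0.0176). ATP5G3 over ATP5G2 differed by -0.11 ± 0.26 with 6 of 10 animals lower, which did not pass (exact p = 0.195). In inverted teats of 5 animals the same ratios differed by -0.36 ± 0.48, -0.30 ± 0.20 and -0.15 ± 0.33, each lower in 4 of 5 animals, with no test. Without animal 1103 they were -0.43, -0.29 and -0.025, each lower in 3 of 4 animals.

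**Figure D4:**
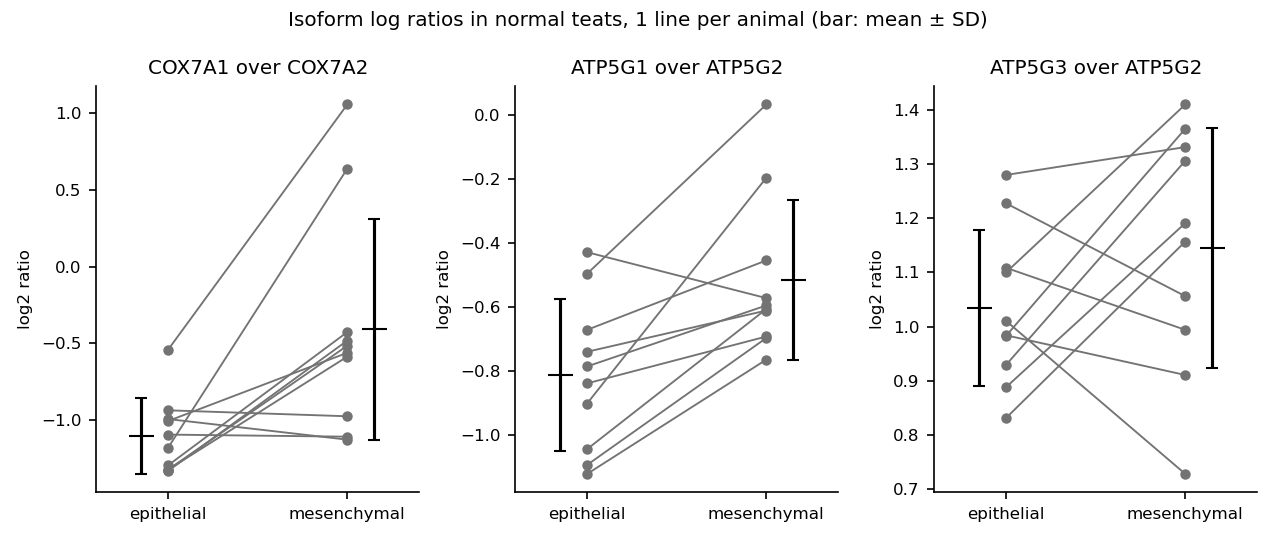
Log2 ratio of paired isoform genes (y axes) in epithelial and mesenchymal tissue of normal teats, 1 line per animal, bars giving the mean and SD over 10 animals. The lines for COX7A1 over COX7A2 fan out in mesenchyme (SD 0.72 against 0.25 in epithelium), and those for ATP5G1 over ATP5G2 rise in 9 of 10 animals.

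In inverted teats the chain was also lower in epithelial tissue. Of the 64 members 57 were lower in epithelial tissue and 0 were higher, against 12.3% of 18783 probe sets lower and 1.52% higher, and the median difference was -0.89 (-0.11 over all probe sets). At an unadjusted p below 0.05 there were 63, against 28.7% of all probe sets, and all 64 lay below 0, where 40.4% of all probe sets lay above it. By complex the counts were 32 of 36, 4 of 5, 2 of 2, 6 of 7 and 13 of 14. Without the epithelial array of animal 1103, 54 of the 64 members were lower and the median was -0.87. Quantile normalization moved the median of all probe sets from -0.11 to 0.01 and the higher share of all calls from 11% to 48.8% (28.1% with array medians subtracted), and 28 members then remained lower, with a median of -0.50, including 19 of complex I, 1 of complex IV and 4 of complex V. The tissues did not overlap in 56 members, against 11% of all probe sets lower and 0.612% higher without overlap; without the epithelial array of animal 1103 these were 58 members and 12.9%. Of the cell type lists, 0 of 23 muscle and 14 of 16 adipocyte markers passed as lower, and 0 of 11 luminal markers passed as higher.

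SDHA, the complex II flavoprotein, was 9.14, 8.497, 8.97, 8.62 and 8.63 in the epithelial and 9.91, 9.33, 10.5, 10.1 and 10.6 in the mesenchymal inverted teats of animals 963, 964, 1037, 1059 and 1103. The tissues did not overlap. COX5B had the smallest p (-1.05 ± 0.16, adjusted p = 0.000385), and ATP5E, which had not passed in normal teats, was lower by 0.51 ± 0.12 in 5 of 5 animals (adjusted p = 0.00474; 0.0604 without animal 1103). After quantile normalization ATP5E differed by -0.048 (adjusted p = 0.803). COX8H was 4.90 in mesenchyme of animal 963 and 7.87, 10.02, 10.34 and 7.55 in animals 964, 1037, 1059 and 1103. Epithelial levels ran from 4.69 to 6.61, and animal 963 was the only 1 with more in epithelium. The difference of -2.17 ± 0.94 did not pass (adjusted p = 0.123) but passed without animal 963 (-3.14, adjusted p = 0.0386). COX7A1 passed (-1.10 ± 0.30, adjusted p = 0.0134) but not without animal 1037 (adjusted p = 0.0686), without animal 1103 (0.0722) or after quantile normalization (-0.75, 0.0894). The other members that did not pass were NDUFA5, NDUFAF1, NDUFAF2, NDUFV3, SDHAF2 and ATP5S. NDUFV3 passed with the animal as a random or fixed block (adjusted p = 0.0086 and 0.025). In animal 963 the muscle list was 3.59 in the mesenchymal and 8.10 in the epithelial piece, and the adipocyte list 10.09 and 8.86. Of 64 members 63 were lower in its epithelial tissue, with a median of -0.53, against -0.75 to -1.31 in the other 4 animals. The part of either cell type was not tested.

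Teat comparisons within each tissue asked whether the chain differs with inversion or with affection status. In the 6 comparisons 0 of 64 members passed, and 0% of all probe sets did (limma; 17661 probe sets in epithelial and 17839 in mesenchymal tissue). At an unadjusted p below 0.05 they numbered 1 of 64 in a single comparison, epithelial normal teats of affected against non-affected animals, where 2.38% of all probe sets did, and 0 in the other 5. The share of all probe sets was 1.72% for epithelial inverted against normal teats of affected animals and 2.74% against those of non-affected animals, and in mesenchyme 0.437%, 1.23% and, for affected against non-affected normal teats, 1.13%. Both teats of an affected animal are paired, which these fits left out. With the animal as a random or fixed block, 5.62% or 4.01% of all probe sets passed the unadjusted threshold for epithelial inverted against normal teats, and 4 or 0 members, all 4 lower; in mesenchyme it was 3% with either block, and 0 members. No adjusted p of a member passed with a block. Comparisons that use the same group of arrays share them and are not independent.

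In epithelial tissue of affected animals 59 of 64 members were lower in inverted than in normal teats, with a median of -0.11 against 0.00 for all probe sets, of which 50.3% lay above 0. Members of all 5 complexes had medians between -0.13 and -0.06, and 1 member (ATP5G2) did not overlap between teat types, against 0.13% of all probe sets lower without overlap. In all 5 animals 12 members were lower. The share of all probe sets with such a pattern is not given, so this count cannot be judged against it. ATP5G2, which encodes the membrane ring subunit, had the smallest p (-0.21 ± 0.11, lower in 5 of 5 animals, adjusted p = 0.9997). NDUFA13, a complex I accessory subunit also known as GRIM-19, gave -0.21 ± 0.13, and COX8H gave 0.33 ± 0.35. The mean of the whole chain fell by 0.15 in animal 1037, 0.19 in animal 1059 and 0.19 in animal 1103, and was within 0.03 of no change in animals 963 and 964. Without the inverted teat array of animal 1103 57 members lay below 0 and their median was -0.087. The skeletal muscle list of these groups ran from 3.77 to 8.10 (mean 6.42, n = 5) in inverted and from 3.39 to 8.46 (mean 5.02) in normal teats, and the luminal list from 4.42 to 9.23 and from 8.16 to 9.29. Their part was not tested.

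Normal epithelial teats of affected animals lay slightly above those of non-affected animals in 51 of 64 members (median 0.07; 45.5% of all probe sets lay above 0). Leaving out each animal in turn moved this median between -0.00496 and 0.13. ATP5O, a stalk subunit, was the member past the unadjusted threshold (0.27 ± 0.11, unadjusted p = 0.024, adjusted p = 0.999 in limma). Inverted teats of affected against normal teats of non-affected animals gave a median of -0.03 with 45 members below 0 (44.5% of all probe sets lay above it), or -0.020 and 37 members without the inverted array of animal 1103, and NDUFA5, a complex I accessory subunit, had the smallest p at -0.25 ± 0.16.

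**Figure D5:**
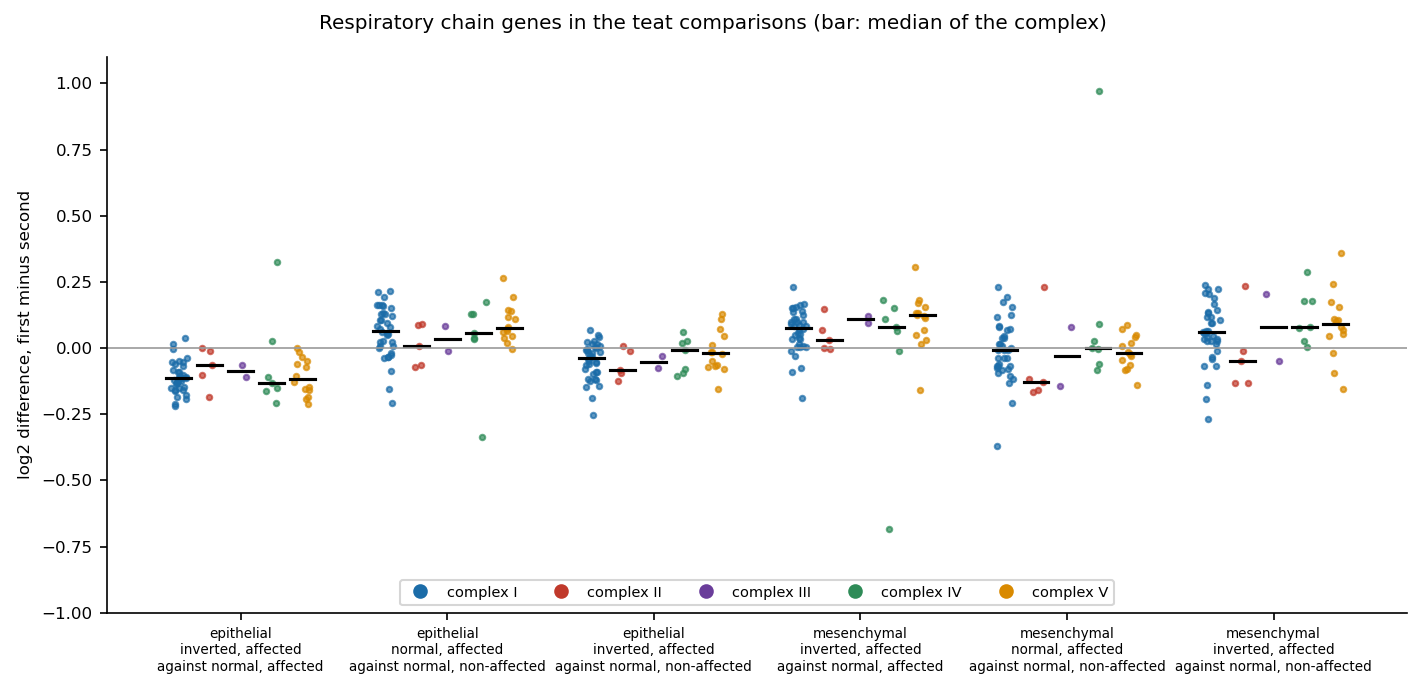
Log2 difference of each member (y axis, first class minus second) in the 6 teat comparisons (x axis), coloured by complex, with a bar at the median of each complex. Nearly all members lie within 0.4 of 0; the outlying complex IV points are COX8H, from -0.69 to 0.97 in mesenchyme, and none passed the test.

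In mesenchymal tissue the animals went opposite ways. Inverted minus normal teats gave a mean over the chain of 0.52 in animal 1037, 0.34 in 1103 and 0.13 in 964, but -0.29 in 963 and -0.37 in 1059. The median over members was 0.08, against 0.07 for all probe sets, and 55 members lay above 0, as did 66.3% of all probe sets. With quantile normalization it was -0.00463. The muscle list moved the same way in 3 of these animals, from 8.90 to 10.6 in 1037, from 10.9 to 3.59 in 963 and from 11.9 to 11.1 in 1059, and slightly downward in 1103 (8.40 to 8.09) and 964 (9.71 to 9.56). Its part was not tested. ATP5I, a small membrane subunit, had the smallest p (0.31 ± 0.19), and COX8H gave -0.69 ± 1.20, turning to 0.31 without animal 963. Affected against non-affected normal teats gave a median of -0.01, with 0 members free of overlap (0.0505% of all probe sets higher and 0.0729% lower without it), NDUFS1, the largest core subunit of complex I, at -0.37 ± 0.23 and COX8H at 0.97 ± 1.20, which ran from 0.087 to 1.84 when 1 animal was left out. Inverted teats of affected against normal teats of non-affected animals gave a median of 0.07, with ATP5I again first at 0.36 ± 0.19. The median of all probe sets was 0.045 there, and 58.8% of them lay above 0. With quantile normalization the median of the members was -0.00682.

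The difference between tissues was also compared between teat types and between affection states. As interaction terms, 0 of 64 members passed in either (0% of 18783 probe sets). For teat type 59 of 64 members lay below 0 with a median of -0.19 (-0.07 for all probe sets, of which 38.9% lay above 0), and 57 members with a median of -0.18 without the array of animal 1103. After quantile normalization the median was -0.080 (-0.00835 for all probe sets), and leaving out each animal moved it between -0.28 and -0.071. The animals went opposite ways in the mean of this term over the chain. That mean was -0.67 in animal 1037, -0.53 in 1103 and -0.099 in 964, but 0.18 in 1059 and 0.29 in 963. ATP5E gave -0.36 ± 0.16 (limma, unadjusted p = 0.0392, adjusted p = 0.99999), COX7A2 -0.39 ± 0.20 and ATP5G3 -0.31 ± 0.19, each below 0 in all 5 animals. For affection status the median was 0.11 (0.000918 for all probe sets, of which 50.2% lay above 0), and ATP5O had the smallest p (0.31 ± 0.19). Leaving out each animal moved this median between -0.00124 and 0.20. The median SE over members was 0.26 for the interactions, 0.14 for the epithelial and 0.22 for the mesenchymal teat comparisons.

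Genes that feed, assemble and serve the chain were read from lists for the tissue comparison of normal teats. Of 3 measured electron transfer and ATP synthase partners all 3 were lower in epithelial tissue: the electron carrier cytochrome c (CYCS, -1.10 ± 0.23), ETFDH, which passes electrons from fatty acid oxidation to ubiquinone (-1.45 ± 0.18), and the ATP synthase inhibitor ATPIF1 (-0.80 ± 0.12). In the citric acid cycle and pyruvate dehydrogenase 15 of 16 were lower, with a median of -0.98, including citrate synthase (CS, -1.38 ± 0.15) and PDHB (-1.45 ± 0.18); DLD did not pass (-0.43 ± 0.21, adjusted p = 0.115). In fatty acid oxidation 15 of 17 were lower, led by ECI1 (-1.47 ± 0.17) and ACADS (-1.34 ± 0.17). Among carriers and energy transfer proteins 10 of 14 were lower, including the outer membrane channels VDAC1 (-1.32 ± 0.13) and VDAC2 (-0.99 ± 0.11). With quantile normalization the lower counts were 3, 14, 13 and 9.

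Glycolysis was lower in epithelial tissue as well. Of its 15 tested genes 12 passed, with a median of -1.41, including ALDOC (-2.42 ± 0.35) and LDHB (-1.16 ± 0.15). Quantile normalization left 10. Of 12 tested assembly factors outside the naming rule 6 were lower (median -0.40), among them the membrane insertase OXA1L (-0.68 ± 0.10) and the prohibitin PHB2 (-0.71 ± 0.13). Regulators of mitochondrial genes showed both directions. TFAM, which packages mitochondrial DNA and activates its transcription, was higher in epithelial tissue by 0.57 ± 0.16 in 9 of 10 animals (adjusted p = 0.0106), and by 0.68 after quantile normalization (adjusted p = 0.00122). PPARD, a nuclear receptor for fatty acids, was lower by 1.18 ± 0.23, and the other 5 tested regulators did not pass. PPARGC1A and PPARA lay below the filter on low values.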

How the data were processed

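The authors deposited 1 log2 value for each probe set and array. The log base was inferred from their range, and the submitters' processing notes name GCOS 1.1.1 and PLIER without their roles. The values were used as deposited, with array medians from 5.71 to 6.04. Of 24123 probe sets, 124 controls were left out. Tests kept probe sets that exceeded the 30th percentile of the array on 5 or more of the arrays fitted. Fits used limma 3.58.1 in R 4.3.3 with Benjamini-Hochberg adjustment. The tissue comparison of normal teats used 20 arrays with status as covariate, that of inverted teats and the interactions used all 30, and the teat comparisons used 15 arrays of 1 tissue. Errors of differences are SE of the fit unless marked SD. Isoform ratios were tested by exact sign flips within animals. The animal numbers pair arrays: both teats of an animal deviated together (r between 0.24 and 0.54 in epithelium, 0.14 and 0.67 in mesenchyme). The best match was the own animal in 5 of 5 and 4 of 5. Between tissues r was 0.020 to 0.69 in normal teats of non-affected and 0.014 to 0.42 in those of affected animals. It was -0.026 to 0.62 in inverted teats. The best match across tissues was the own animal in 4, 3 and 2 of 5, in that order. The animal entered as a block only in alternatives. The fits were tested on data with simulated differences in 100 probe sets. At a simulated size of 0.5 the tissue comparison of normal teats recovered 24% of them. Inverted against normal teats of affected animals recovered 0% in epithelial and 1% in mesenchymal tissue. At a size of 1 the shares were 86%, 34% and 41%, with 0 false calls. The teat comparisons could therefore miss most differences of these sizes.

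Members, lists and tests were chosen with earlier results of these data known. Genes were named by rule: per complex the 3 largest differences past the threshold and the smallest, measured isoform pairs and all members not past it; per teat comparison the smallest p in each direction per complex, of which the text gives the leading ones; 3 per interaction and 2 per list. NDUFAF1, NDUFAF3, NDUFA4, NDUFV2, NDUFS3, SDHD, ATP5S, ATP5J, COX6A1, CYCS, DLD, PPARGC1A and PPARA, where named outside it, were chosen after their values were seen. Alternatives were quantile normalization, array median subtraction, no filter, the mean over a gene's probe sets, the animal block, leaving out 1 array and leaving out each animal. The inverted-teat isoform ratios without animal 1103 and the overlap count without its array were added after seeing the data. Promoter and protein sequences were not used here.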

Additional observations from a re-analysis of the deposited data

Results flagged for a closer look

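A value far from the other 4 of its group, by Dixon's test at its 95% limit, was found in 7 of 108 groups of values checked; chance gives about 1 in 20. Animal 1037 accounted for 3 of them, each the highest in epithelial tissue: COX5B at 10.6 in its inverted teat (the highest of the others 10.2), COX7A2 at 9.72 in its inverted teat (others 9.25 to 9.35) and UQCR10 at 9.63 in its normal teat (others 9.07 to 9.21). In epithelial normal teats of non-affected animals, animal 1058 was high in SDHA, at 9.22 (others 8.55 to 8.73), and in the mean of complex II, at 9.01 (others 8.77 to 8.83). Animal 1040 was low there in COX7A2, at 9.18 (others 9.47 to 9.58). In mesenchymal normal teats of affected animals, UQCRB stood at 11.5 in animal 1059 (others 10.3 to 10.6), the array with the highest skeletal muscle list mean of all.

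COX6A1 went opposite ways in the tissues: from normal to inverted teats it was lower in epithelial tissue in 5 of 5 animals and higher in mesenchymal tissue in 5 of 5. The difference between these changes was -0.30 ± 0.28 and did not pass as an interaction (limma, unadjusted p = 0.298, adjusted p = 0.99999).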

How the results depend on the processing

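Quantile normalization changed the tissue comparisons most. In normal teats it gave 1 member higher in epithelial tissue, ATP5E at 0.22, and a median of -0.43. In inverted teats it gave 28 members lower and a median of -0.50. The cause was not tested. Leaving out each animal in turn gave 58 to 60 members lower in normal teats (median -0.77 to -0.69) and 43 to 58 in inverted teats (median -0.99 to -0.80), the lowest without animal 1103. Of 288 values for the 18 named genes past the threshold in inverted teats 17 lost the call, and of 255 in normal teats 2 did.

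With the replicate block, the animal as a random or fixed term, 61 or 60 members were lower in normal teats and 61 or 58 in inverted teats. NDUFA3 (adjusted p = 0.0196 and 0.0244) and NDUFA5 (0.0407, random term) gained the call in normal teats, while in inverted teats SDHAF2 (0.0436), ATP5S (0.0219), NDUFAF1 (0.0342) and NDUFV3 (0.0086) gained it with the random term, NDUFA5 (0.0436) and NDUFV3 (0.025) gained it with the fixed term, and ATP5J lost it there (0.0644). The block changed no other member's call in the comparisons run with it.

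In the teat comparisons, where no member passed, small differences changed sign. With the array median subtracted, SDHA was -0.00352 in epithelial inverted against normal teats, and UQCRB 0.020 and ATP5A1 0.025 in epithelial affected against non-affected normal teats. Without the epithelial inverted array of animal 1103, NDUFV3 was -0.063 against normal teats of affected and COX7A1 -0.021 against those of non-affected animals. Leaving out each animal gave these ranges. In epithelial inverted against normal teats NDUFV3 ran from -0.00462 to 0.090 and SDHA from -0.085 to 0.091. In epithelial affected against non-affected normal teats UQCR10 ran from -0.012 to 0.13, UQCRB from -0.097 to 0.080 and ATP5A1 from -0.11 to 0.066. In epithelial inverted against non-affected normal teats SDHA ran from -0.084 to 0.12, UQCRB from -0.13 to 0.00331 and COX7A1 from -0.021 to 0.20. In mesenchymal inverted against normal teats NDUFAF1 ran from -0.34 to 0.00793, SDHC from -0.12 to 0.17, UQCR10 from -0.074 to 0.26 and COX8H from -1.40 to 0.31. In mesenchymal affected against non-affected normal teats UQCR10 ran from -0.041 to 0.21 and UQCRB from -0.35 to 0.010, and in inverted against non-affected normal teats UQCRB ran from -0.16 to 0.11. The number of arrays, 5 a group, limits the precision.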
